A study of Mus musculus with 17 samples.

Results

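The genes examined here were 10 markers of fat cells, Adipoq, Lep, Retn, Cfd, Plin1, Cidec, Fabp4, Lipe, Adrb3 and Car3, in the colon of mice given pyridostigmine bromide (PB). They were picked by symbol, as products typical of adipocytes, and make up 10 of the 23719 entries of the table of gene counts. RNA was sequenced from colon explants of male C57BL/6 mice aged 32 to 34 weeks. The 9 Control mice drank water, and the 8 GWI mice (a model of Gulf War illness) drank PB at 2 mg/kg for 7 days and had 21 days of recovery, with tissue taken at 30 days.

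Adipocytes store triglyceride in a single large droplet and release hormones, the adipokines, into the blood. The colon wall itself holds few of them, whereas the mesentery along its outer side is rich in fat and is joined to the wall by vessels and mesothelium. Enterocytes, macrophages and the cells of capillaries make some of the same lipid enzymes and carriers.

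Levels are given as CPM, the counts of a gene in a library brought to 1000000 counts, and scaled by the trimmed mean of M values (TMM), a factor that evens out libraries of different composition. Total counts lay between 16293537 and 20741212 per mouse. Groups were compared with the quasi-likelihood test of edgeR, and p-values were adjusted over the 14146 genes that passed its filter. Differences are log2 fold changes, GWI minus Control, with standard errors (SE), and a gene is called higher or lower at an adjusted p under 0.05. Of the tested genes 1889 were called higher and 1903 lower, and the median log2 fold change was -0.06.

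Some libraries stood apart from the others of their group. Control mouse 9 had 19.5% of its counts in mitochondrial genes, against a Control median of 10.3% (lowest 6.11%), and had the lowest quality weight of the 17 (0.117). Control mouse 1 had a weight of 0.248. The mitochondrial share was lower in GWI mice, 6.26% to 9.76% with a median of 7.15%, and its part in the differences between groups was not tested. For the fat genes it was GWI mouse 7 that stood apart, with the highest level of all 10 genes among the 17 mice, so the counts of calls among the 10 genes and in the wider list below are also given without each of these mice.

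The summed level of the 10 genes ran from 58.5 through a median of 209.6 to 489 CPM in Control mice and from 142 through 365 to 1384 CPM in GWI mice. Control mice 2, 7, 8 and 6 lay below every GWI mouse, GWI mice 8, 4 and 7 lay above every Control mouse, and the other 5 GWI mice lay within the Control range. The highest mouse held 23.7 times the level of the lowest, and the spread was wide inside each group, 8.37-fold among Control and 9.73-fold among GWI mice. Without GWI mouse 7 the latter was 4.31-fold. The GWI mean was 1.74 times the Control mean, or 1.26 times without GWI mouse 7. All 10 genes together made up 0.00579% to 0.0505% of a Control library and 0.0135% to 0.132% of a GWI library. In bulk RNA, fewer adipocytes in a piece and less RNA of these genes in each adipocyte cannot be told apart.

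**Figure D1:**
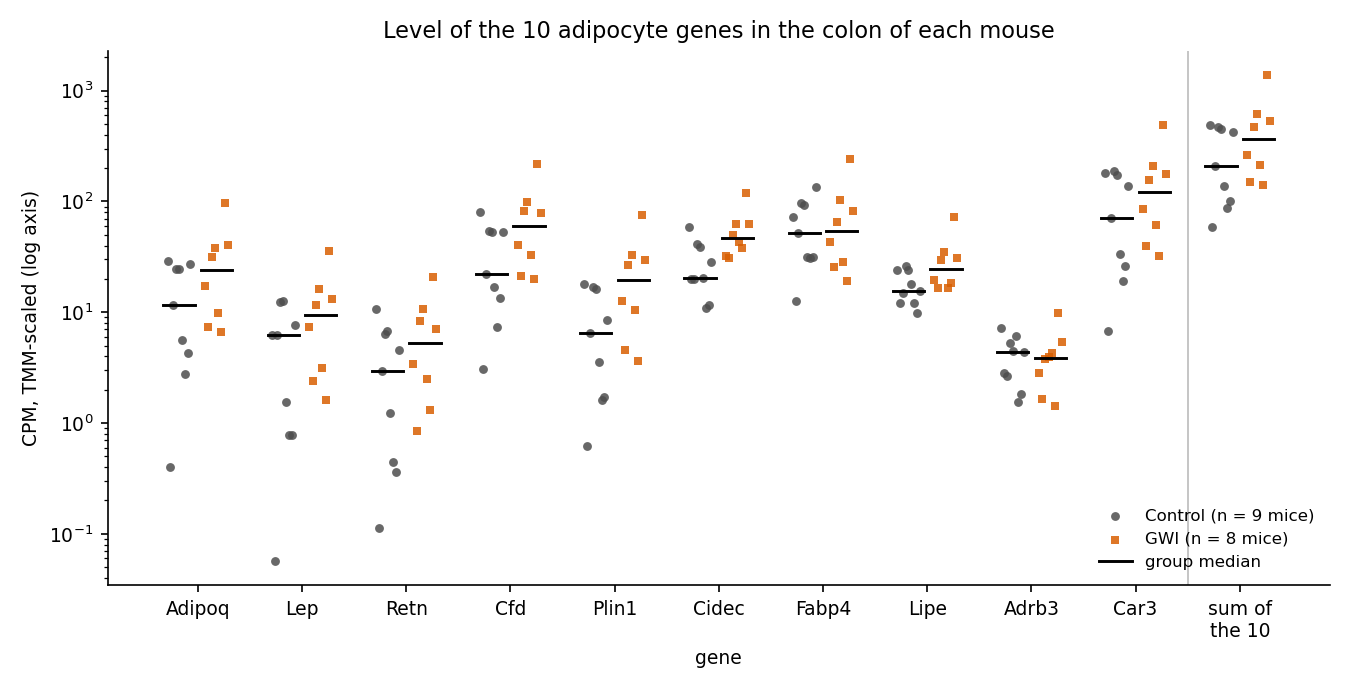
Level of each of the 10 adipocyte genes and of their sum (vertical log axis, TMM-scaled CPM), with 1 circle per Control mouse (9), 1 square per GWI mouse (8) and a black line at each group median. The sum runs from 58.5 CPM in Control mouse 2 to 1384 CPM in GWI mouse 7, and the groups overlap for every gene.

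Adipoq encodes adiponectin, the most abundant hormone of fat cells. It lay between 0.398 and 29.2 CPM in Control mice (median 11.7) and between 6.65 and 96.3 CPM in GWI mice (median 24.3). Control mouse 2 had 7 counts and Control mouse 1 the highest CPM of its group, and GWI mice 3, 4, 7 and 8 exceeded every Control mouse while the other 4 overlapped with that group. The difference of 1.10 (SE 0.64) had an adjusted p of 0.206.

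Lep encodes leptin, the hormone that reports the size of fat stores. Control mice had 0.0568 to 12.6 CPM, with a median of 6.23, and GWI mice 1.61 to 35.7 CPM, with a median of 9.44. Leptin was lowest in Control mouse 2, where it was a single count (1), and the groups overlapped apart from GWI mice 4, 7 and 8, which lay above Control mouse 5. Its log2 fold change was 1.08 (SE 0.71; adjusted p 0.254).

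Retn is the gene of resistin, a peptide that mouse adipocytes secrete. Its levels were 0.114, 2.96 and 10.6 CPM (lowest, median and highest) in Control mice and 0.849, 5.28 and 20.6 CPM in GWI mice. Control mouse 2 was again lowest and Control mouse 1 highest of its group, and only GWI mice 4 and 7 lay above the Control range. With 2 to 336 counts, Retn was limited by depth in Control mouse 2, and its difference was 0.89 (SE 0.71; adjusted p 0.350).

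Cfd encodes adipsin, the protease that starts the alternative pathway of complement. Its lowest, median and highest levels were 3.07, 22.2 and 80.9 CPM in Control and 20.1, 59.7 and 219.5 CPM in GWI mice. Control mice 2, 7, 8 and 6 lay under the lowest GWI mouse, and GWI mice 3, 4 and 7 lay over Control mouse 1, with overlap between. Adipsin had the highest level for its length among the 10 genes, 57.4 CPM per kilobase of transcript against 16.1 for Adipoq, 3.29 for Retn and 2.44 for Lep. Its difference was 1.14 (SE 0.57; adjusted p 0.139).

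Plin1 encodes perilipin 1, which coats the droplet and holds lipases off it. Levels in Control mice were 0.625 to 17.8 CPM (median 6.44) and in GWI mice 3.61 to 75.1 CPM (median 19.6). GWI mice 3, 4, 7 and 8 exceeded Control mouse 1, the highest of its group, and 6 of 8 exceeded the Control median, yet the groups overlapped in the lower part of the range. Perilipin 1 had the largest difference of the 10, 1.59 (SE 0.64), a fold of 3.01 with a 95% confidence interval of 1.25 to 7.21. Its adjusted p was 0.0729, so it was not called.

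Cidec encodes a protein of the droplet surface that fuses small droplets into large ones. Control mice had 10.8, 20.2 and 58.7 CPM (lowest, median and highest), and GWI mice had 30.7, 46.4 and 119.98 CPM. All 8 GWI mice lay above the Control median, GWI mice 4, 7 and 8 lay above Control mouse 1, and 3 Control mice (1, 4 and 5) lay inside the GWI range. Cidec was the only gene of the 10 that was called, higher in GWI by 0.99 (SE 0.33; adjusted p 0.0365), a fold of 1.98 with a confidence interval of 1.26 to 3.11. The call of Cidec depended on single mice. Without GWI mouse 7 the difference was 0.72 with an adjusted p of 0.101, and without Control mouse 2, 3, 6, 7 or 8 the adjusted p was 0.0584, 0.0625, 0.0613, 0.0548 or 0.0530. Without GWI mouse 3, 4 or 8 it was 0.0521, 0.0621 or 0.0527. Cidec was still called without Control mouse 9 (1.00, adjusted p 0.0403) and without Control mouse 1 (1.21, adjusted p 0.00739), and DESeq2 with all mice gave an adjusted p of 0.0145.

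Fabp4 encodes the fatty acid carrier of adipocytes, which capillary endothelium and macrophages also make. It was present at 12.7 to 136 CPM in Control mice (median 51.6) and at 19.0 to 243 CPM in GWI mice (median 54.2). Only GWI mouse 7 lay above the Control range, whose highest mouse was Control 9, and 4 of 8 GWI mice lay above the Control median. The difference was 0.30 (SE 0.50; adjusted p 0.667), and without GWI mouse 7 it was -0.24.

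Lipe encodes hormone-sensitive lipase, which cleaves diglyceride in the droplet. In Control mice it measured 9.76 to 26.3 CPM around a median of 15.7, and in GWI mice 16.6 to 73.1 CPM around 24.7. Every GWI mouse exceeded the Control median, and GWI mice 3, 4, 7 and 8 exceeded Control mouse 4, the highest of its group. Its difference of 0.78 (SE 0.29) had an unadjusted p of 0.0143 and an adjusted p of 0.0521, and DESeq2 gave an adjusted p of 0.0284. Lipe overlaps a gene on the opposite strand, 4732471J01Rik, and reads of such a pair cannot be told apart while the strand setting of the counting is unknown.

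Adrb3, the beta3-adrenergic receptor through which noradrenaline starts lipolysis, had the smallest difference of the 10. Control mice had 1.55 to 7.20 CPM (median 4.39) and GWI mice 1.43 to 9.76 CPM (median 3.89). GWI mouse 7 was above and GWI mouse 6 below all Control mice, and the other 6 overlapped. The difference was 0.04 (SE 0.37; adjusted p 0.953), a fold of 1.02 with a confidence interval of 0.623 to 1.68, from 25 to 159 counts per mouse. Adrb3 had the lowest level of the 10 for its length, 1.21 CPM per kilobase, and it shares exon sequence with Gm45470 on the opposite strand.

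Car3 encodes carbonic anhydrase 3, an abundant cytosolic enzyme of adipocytes. Its levels were 6.82, 70.8 and 187 CPM in Control mice (lowest, median and highest) and 32.5, 122 and 491 CPM in GWI mice. Control mouse 4 was the highest and Control mouse 2 the lowest of its group, and only GWI mice 4 and 7 lay above the Control range. Car3 supplied 34.5% of the summed CPM in Control and 33.4% in GWI mice. Its difference was 0.75 (SE 0.62; adjusted p 0.368).

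Of the 10 genes, 1 (Cidec) was called higher and 0 lower, beside 13.4% of all tested genes called higher and 13.5% called lower. All 10 log2 fold changes were positive, with a median of 0.94, whereas 44.8% of all tested genes had a positive one. These signs are not 10 separate observations, since the 10 genes varied together between mice (median pair r 0.872). The smallest, Adrb3 at 0.04, was negative without GWI mouse 7 (-0.27). Plin1, Cidec and Lipe had an unadjusted p under 0.05 in edgeR, all 3 higher, beside 5851 of the 14146 tested genes in either direction. Lower at that level were 0 of the 10, and 0 were called lower by DESeq2 or limma-voom. DESeq2 called Cidec and Lipe higher, and limma-voom with sample quality weights called Cidec. Without Control mouse 9 edgeR called 1 of the 10 (median 0.97), without Control mouse 1 it called 3, Plin1, Cidec and Lipe (median 1.17), and without GWI mouse 7 it called 0, with 1 at an unadjusted p under 0.05 (median 0.51). With upper-quartile factors in place of TMM, 28.9% of all calls were higher ones against 49.8%, so the balance of directions among all genes depends on the scaling.

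Spread between mice was far wider for these genes than for most. The standard deviation of log2 CPM over the 17 mice was 1.54 for the median member against 0.37 for the median tested gene. Adipoq stood at percentile 99.8 of all tested genes by this measure, Lep at 99.9, Cidec at 95.7, Adrb3 at 91.6 and Lipe at 86.5. With 9 and 8 mice, Adipoq had a fold of 2.14 with a confidence interval from 0.890 to 5.13.

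The 10 genes varied together from mouse to mouse. Over the 45 pairs the median Pearson r of log2 CPM was 0.872, with the lowest for Lep and Adrb3 (0.613) and the highest for Adipoq and Cfd (0.985). Within Control mice the median was 0.878 and within GWI mice 0.954. Adipoq, Lep, Plin1, Cfd, Retn and Car3 were the tightest, with all 15 pairs between 0.957 and 0.985. Without Control mouse 9 the median over all pairs was 0.890.

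Each other gene was related to Adipoq, and the p-values of these 9 relations come from 100000 permutations of the mice and were adjusted over the 9 by the Benjamini-Hochberg method. Lep (r 0.980, Spearman rho 0.949), Plin1 (0.962, 0.966), Cfd (0.985, 0.973), Retn (0.963, 0.966), Car3 (0.984, 0.936) and Fabp4 (0.894, 0.841) all had a permutation p of 1e-05 for r, the smallest possible. Cidec followed with r 0.784 and rho 0.870 (adjusted permutation p 0.00021 for r), Lipe with 0.811 and 0.853 (0.00024) and Adrb3 with 0.628 and 0.625 (0.0059). Without Control mice 2 and 7, the 2 farthest from the centre in Adipoq, r was 0.962 for Lep, 0.958 for Plin1, 0.981 for Cfd, 0.961 for Retn, 0.985 for Car3, 0.908 for Fabp4, 0.841 for Cidec, 0.867 for Lipe and 0.707 for Adrb3. Within Control mice it was lowest for Adrb3 (0.589), Cidec (0.686) and Lipe (0.727) and at least 0.955 for the other 6. Within GWI mice Adrb3 had 0.885, Cidec 0.894 and Lipe 0.945, and the other 6 lay between 0.972 and 0.994.

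**Figure D2:**
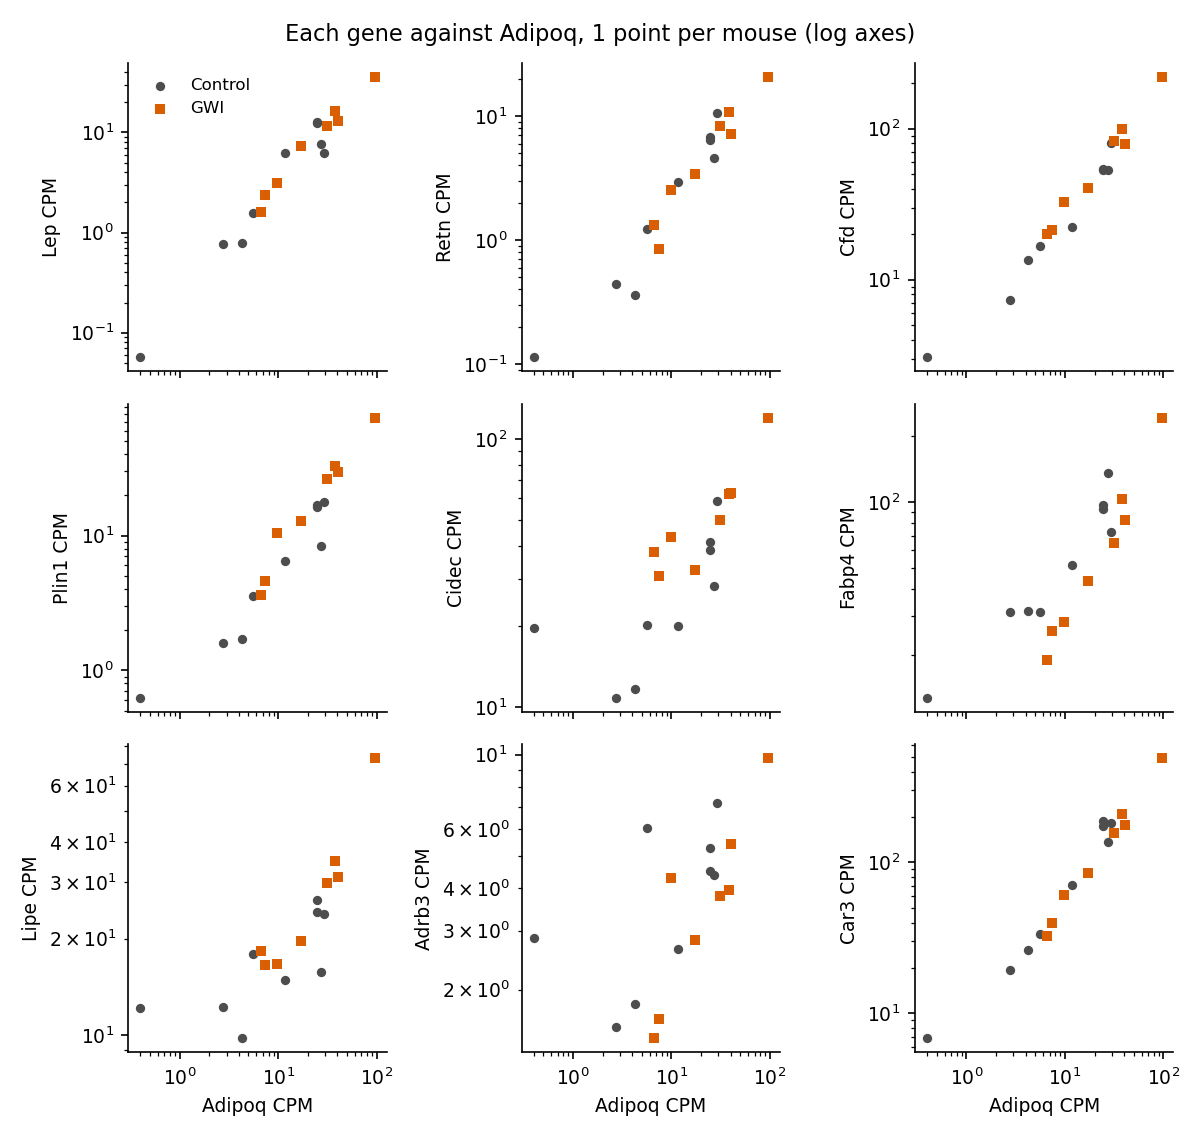
CPM of each of the 9 other genes (vertical) against Adipoq CPM (horizontal), both on log axes, with 1 circle per Control mouse and 1 square per GWI mouse. Lep, Retn, Cfd, Plin1 and Car3 follow Adipoq down to Control mouse 2 at 0.398 CPM of Adipoq, while Cidec (19.8 CPM there), Lipe (12.1) and Adrb3 (2.84) level off.

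Control mouse 2 was the mouse with the least Adipoq. At 0.398 CPM of Adipoq and 0.0568 of Lep it still had 19.8 CPM of Cidec, 12.1 of Lipe, 12.7 of Fabp4, 6.82 of Car3, 3.07 of Cfd and 2.84 of Adrb3. Its ratio of Cidec to Adipoq was 49.7, against a Control median of 2.01, and its ratio of Lipe to Adipoq was 30.4, against 1.27. The same ratio was 7.14 against 0.25 for Adrb3, 31.9 against 4.99 for Fabp4, 17.1 against 6.23 for Car3, 7.71 against 2.68 for Cfd and 1.57 against 0.61 for Plin1. Retn lay near its Control median (0.286 against 0.252), and Lep lay below it (0.143 against 0.280). These ratios rest on 1 library with 7 counts of Adipoq, and the cells that held the remaining Cidec, Lipe and Fabp4 counts were not tested.

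The ratio of Fabp4 to Adipoq was lower in most GWI mice, and the ratio itself was not tested. The ratio was 2.496 to 31.9 in Control mice (median 4.99) and 2.04 to 3.44 in GWI mice (median 2.63). Control mouse 1 alone lay within the GWI range, since the second lowest Control ratio was 3.78. A lower ratio was not particular to Fabp4. That of Car3 was 5.02 to 17.1 in Control (median 6.23) and 4.35 to 6.22 in GWI mice (median 5.06). Median ratios of Adrb3 (Control 0.247, GWI 0.149), Cfd, Retn, Cidec and Lipe were also lower in GWI mice. Those of Lep and Plin1 were higher. When the log2 CPM of Adipoq was added to the model, a setting chosen after the data had been seen, Fabp4 was lower in GWI by -0.69 (SE 0.21; adjusted p 0.0273) and Cidec was no longer called (0.57, SE 0.25; adjusted p 0.105). The median over the other 9 genes was -0.11 in that model, and 0 of them were called higher, with 2 higher at an unadjusted p under 0.05. Of 9 genes of endothelium, a further source of Fabp4, Kdr, Emcn, Egfl7, Esam and Gpihbp1 were called lower in GWI (median of the 9, -0.67), beside 13.5% of all tested genes. The 5 became 7 without Control mouse 9 and were 5 without Control mouse 1 or GWI mouse 7, and with the smooth muscle score in the model they were 2, Emcn and Egfl7 (median -0.21). The summed level of the 9 was 115 CPM in the median Control and 78.0 CPM in the median GWI mouse. Of 8 macrophage genes 2, Mrc1 and Lyz2, were called lower, beside 13.5% of all tested genes, and all 8 differences were negative (median -0.42). The summed level of the 8 was 121 CPM in the median Control and 78.0 CPM in the median GWI mouse. A link between the genes of either cell type and Fabp4 was not tested.

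Among the 14136 other tested genes, the nearest to the mean z-score (level minus mean, over standard deviation) of the 10 were ranked by Pearson r. Serpina3c had an r of 0.975, the thyrotropin receptor Tshr 0.972, Tusc5 (Trarg1, of glucose carrier traffic) 0.964, the melanocortin accessory protein Mrap 0.963 and Ankef1 0.962. The peroxisomal carrier Abcd2 (0.955), the lipogenic Thrsp (0.934), transferrin Trf (0.928), the amino acid carrier Slc7a10 (0.928) and haptoglobin Hp (0.926) completed the first 10. Within Control mice alone these 10 had r of 0.864 to 0.980 and within GWI mice 0.912 to 0.994. At an r of 0.9 or more there were 18 genes, against a median of 0.00 over all. None of the first 10 was called, and their log2 fold changes ran from 0.74 for Trf and 0.75 for Abcd2 to 1.29 for Serpina3c (SE 0.59; adjusted p 0.107). Hp had the smallest adjusted p of the 10, 0.0914, with a difference of 1.17.

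A wider list held 31 further genes of the adipocyte, of which edgeR called 9 higher and 2 lower, with a median of 0.32 and 26 positive. As shares of the list these are 29.0% and 6.45%, beside 13.4% and 13.5% of all tested genes. The count was the same without Control mouse 9 or Control mouse 1. Without GWI mouse 7 it was 6 higher and 2 lower, with a median of 0.16. With Adipoq in the model it was 5 higher (Pnpla2, Gpd1, Pck1, Fasn and Acaca) and 1 lower (Pde3b), with a median of 0.02. The list can be divided by likeness to the 10 genes, a division made after the values were seen. Of its 10 genes with an r of 0.7 or more, Plin4, G0s2, Lpl, Cd36, Acsl1, Scd1, Thrsp, Adig, Mrap and Tusc5, only Scd1 was called, and their median was 0.61. The other 21 gave 8 of the higher and both lower calls, with a median of 0.18.

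**Figure D3:**
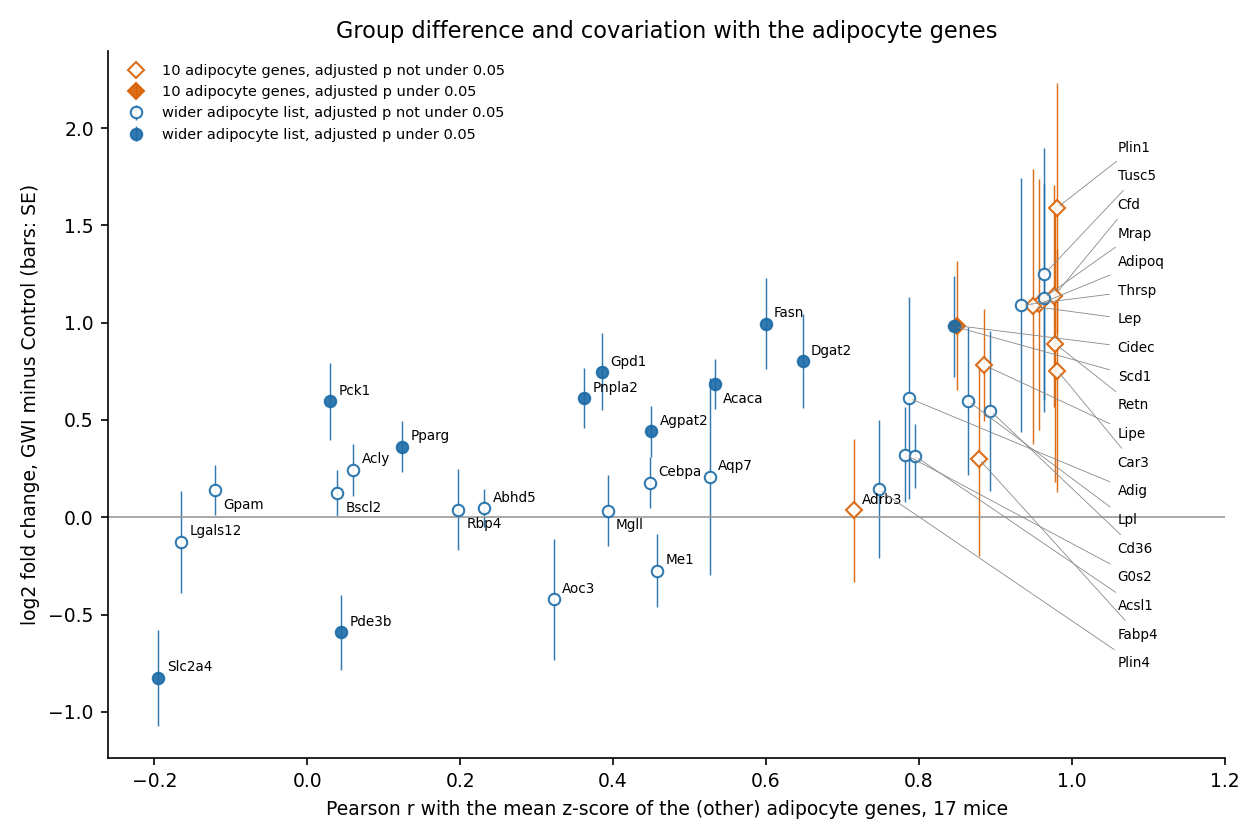
Log2 fold change, GWI minus Control, with bars of 1 SE (vertical), against the Pearson r of each gene with the mean z-score of the 10 adipocyte genes, itself left out, over 17 mice (horizontal). Diamonds are the 10 genes and circles the 31 of the wider list, filled where the adjusted p is under 0.05: Plin1 at 1.59 is open, and Acaca at 0.68 and an r of 0.53 is filled.

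Acaca, Fasn and Scd1 act in the making of fatty acids, as do Acly (0.24, adjusted p 0.171) and Me1 (-0.27, adjusted p 0.280), which were not called. Acaca, acetyl-CoA carboxylase 1, lay between 29.9 and 65.1 CPM in Control mice (median 49.0) and between 65.5 and 98.1 CPM in GWI mice (median 73.4). Its groups did not overlap, with Control mouse 1 the highest of the lower group, and the difference was 0.68 (SE 0.13; adjusted p 0.00189). Fasn, fatty acid synthase, lay at 56.8, 129 and 223 CPM against 206, 243 and 433 CPM, and 6 GWI mice exceeded all Control mice. Fasn rose by 0.99 (SE 0.23; adjusted p 0.00654). Scd1, which desaturates the product, had 57.7, 93.8 and 129 CPM against 93.5, 157 and 386 CPM. GWI mouse 7 was highest for Scd1 and 5 GWI mice were above the Control range (0.98, SE 0.26; adjusted p 0.0120).

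Dgat2 joins the last acyl chain to triglyceride, and Agpat2 an earlier one. Dgat2 measured 42.9, 65.4 and 163 CPM in Control and 80.2, 132 and 234 CPM in GWI mice. Only GWI mouse 7 lay above Control mouse 1 for Dgat2, which was higher by 0.80 (SE 0.24; adjusted p 0.0217). Agpat2 had 49.2, 69.6 and 108 CPM against 66.9, 97.6 and 116 CPM, with 2 GWI mice above the Control range (0.44, SE 0.13; adjusted p 0.0203). Agpat2 shares exon sequence with Egfl7, and Gpd1 with Gm16537, each on the opposite strand, with the same doubt about strand as for Lipe. Gpd1, which supplies the glycerol backbone, had 45.4, 78.7 and 103 CPM against 56.1, 125 and 189 CPM. All GWI mice but GWI mouse 5 exceeded every Control mouse for Gpd1 (0.75, SE 0.20; adjusted p 0.0121).

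Pnpla2, adipose triglyceride lipase, starts the breakdown that Lipe continues. Control mice had 50.8 to 145 CPM of it (median 97.6) and GWI mice 125 to 198 CPM (median 151). For Pnpla2 5 GWI mice lay above Control mouse 2, the highest of its group (0.61, SE 0.16; adjusted p 0.00974). Pparg, the master regulator of fat cells and also a receptor of the colon epithelium, had 96.8, 156 and 192 CPM against 135, 191 and 234 CPM, with 4 GWI mice above the Control range (0.36, SE 0.13; adjusted p 0.0488). Pck1, of glycerol synthesis, had 94.3, 136 and 203 CPM against 89.3, 241 and 309.7 CPM. GWI mouse 5 was below and 6 GWI mice were above all Control mice for Pck1 (0.60, SE 0.20; adjusted p 0.0332). By length Pparg was the strongest gene of the list, with 58.7 CPM per kilobase, beside 53.7 for Pck1 and 41.3 for Pnpla2.

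The 2 lower genes of the wider list act in the insulin response. Slc2a4, the insulin-driven glucose carrier, had 20.9, 38.4 and 83.4 CPM in Control and 15.8, 24.9 and 39.2 CPM in GWI mice. Control mouse 6 was highest for Slc2a4 and 3 GWI mice lay below the Control range (-0.82, SE 0.25; adjusted p 0.0212). Pde3b, the phosphodiesterase by which insulin restrains lipolysis, had 20.6, 28.7 and 61.9 CPM against 17.5, 19.8 and 31.9 CPM, with 5 GWI mice below the Control range (-0.59, SE 0.19; adjusted p 0.0309). Muscle also makes Slc2a4. Of 10 smooth muscle genes, Myh11 and 6 others were called lower in GWI (median -0.91), beside 13.5% of all tested genes. The 7 became 9 without Control mouse 9, 3 without Control mouse 1 and 2 without GWI mouse 7, and Myh11 was not called in the last 2 fits. Of 9 colon epithelium genes 5, Epcam, Cdh1, Vil1, Muc2 and Cdx2, were called higher (median 0.38), beside 13.4% of all tested genes. That count was 4 without Control mouse 9, 7 without Control mouse 1 and 3 without GWI mouse 7. With a smooth muscle score in the model Slc2a4 and Pde3b were not called (-0.25, adjusted p 0.327, and -0.44, adjusted p 0.114), and of the 9 higher genes Pck1 (0.24, adjusted p 0.3605), Pparg (0.19, adjusted p 0.298) and Gpd1 (0.62, adjusted p 0.0675) were not called either. Fasn, Acaca, Dgat2, Scd1, Pnpla2 and Agpat2 were still called in that model.

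When single mice were left out, Pnpla2, Gpd1, Agpat2, Fasn, Acaca, Scd1 and Slc2a4 were called in all 17 fits. Dgat2 was not called without GWI mouse 7 (0.65, adjusted p 0.0557), and Pde3b was not without Control mouse 6 or GWI mouse 1, 3, 4 or 6 (adjusted p up to 0.0628). Pck1 was called in 8 of the 17 fits (adjusted p up to 0.0752, without GWI mouse 7) and Pparg in 5 (up to 0.0985, without GWI mouse 6). Which cells held the counts of Fasn, Acaca or Slc2a4 was not tested.

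Brown fat was hardly visible. Ucp1, the uncoupling protein of brown adipocytes, reached 0.0697 CPM in Control mouse 9 and was 0 in every GWI mouse, and neither it nor Elovl3 (at most 0.147 CPM) passed the filter. Of the 6 thermogenic genes that did, 2 were lower, beside 13.5% of all tested genes, 2 without Control mouse 9 or Control mouse 1, and 1 without GWI mouse 7 (Cox8b). Cox8b, a muscle and brown fat subunit of cytochrome oxidase, had 0.497, 0.980 and 1.97 CPM in Control and 0.344, 0.484 and 0.892 CPM in GWI mice, with 4 GWI mice below the Control range (-1.15, SE 0.29; adjusted p 0.00992). Dio2, the deiodinase that activates thyroid hormone, had 2.08, 3.23 and 13.6 CPM against 1.32, 2.19 and 4.46 CPM, with Control mouse 6 highest and 4 GWI mice below the Control range (-0.98, SE 0.35; adjusted p 0.0466). Dio2 shares exon sequence with Gm26512 on the opposite strand. Higher were 0 of the 6 in edgeR, also at an unadjusted p under 0.05, and 0 in DESeq2 and limma-voom. With the smooth muscle score in the model Cox8b had an adjusted p of 0.0683 and Dio2 of 0.339. Cox8b was called in all 17 fits that left out a mouse and Dio2 in 6, with the highest adjusted p of 0.106 without Control mouse 6.

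Receptors of the adipokines are made by many cells of the colon. Of the 4 tested, 1 was called higher and 2 lower, beside 13.4% and 13.5% of all tested genes, and the count was the same without Control mouse 9. It was 2 higher (Adipor1 and Adipor2) and 2 lower without Control mouse 1, and without GWI mouse 7 it was 0 higher (2 at an unadjusted p under 0.05) and 2 lower. Adipor2, of adiponectin, had 163, 192 and 274 CPM in Control and 219, 256 and 287 CPM in GWI mice, with 3 GWI mice above Control mouse 9 (0.31, SE 0.11; adjusted p 0.0482). Adipor1 had a similar level for its length, 39.0 CPM per kilobase against 38.4 for Adipor2, and was not called (0.18, SE 0.07; adjusted p 0.0734). Lepr, of leptin, lay at 6.62, 8.78 and 18.4 CPM in Control and 4.03, 6.29 and 8.70 CPM in GWI mice. For Lepr 6 GWI mice lay below the whole Control range (-0.64, SE 0.19; adjusted p 0.0223). Cdh13, a cadherin that binds adiponectin on vessels, had 4.41, 11.8 and 37.7 CPM against 4.29, 6.44 and 10.1 CPM, with Control mouse 6 highest and 1 GWI mouse below the Control range (-0.99, SE 0.33; adjusted p 0.0364). With Adipoq in the model 0 of the 4 receptors were called by edgeR, while all 4 had an unadjusted p under 0.05 and their differences were near those without it: Lepr -0.59, Adipor2 0.28 and Cdh13 -0.90. DESeq2 without Adipoq in the model called all 4. With the smooth muscle score in the model Cdh13 (-0.17, adjusted p 0.665), Lepr (-0.40, adjusted p 0.1002) and Adipor2 (0.26, adjusted p 0.111) were not called, and Adipor1 was (0.23, adjusted p 0.0359). With the replicate number as a block, though no pairing by number was seen, 0 of the 4 were called, with 3 at an unadjusted p under 0.05. Lepr was called in all 17 fits that left out a mouse, Cdh13 in 9 (adjusted p 0.0781 without Control mouse 6) and Adipor2 in 4 (0.0884 without GWI mouse 6).

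Adipsin, the product of Cfd, cuts factor B, the product of Cfb. Cfb had 5.68, 8.14 and 12.5 CPM in Control and 8.89, 13.1 and 17.8 CPM in GWI mice, with 6 GWI mice above the Control range (0.63, SE 0.16; adjusted p 0.00974). C3 was not called (-0.49, SE 0.54; adjusted p 0.503), with Control mouse 1 at 218 CPM against a Control median of 23.9. Cfb was called in all 17 fits that left out a mouse, but not with the smooth muscle score in the model (0.40, adjusted p 0.0596). It shares exon sequence with Gm20547 on the same strand.

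Fatty acids that Lipe and Pnpla2 release are burned by oxidation, which epithelium does as well. Called higher among genes of this path were Cpt1a (0.62, SE 0.13; adjusted p 0.00422), Cpt2 (0.41, SE 0.13; 0.0305), Acadvl (0.31, SE 0.11; 0.0368), Hadha (0.63, SE 0.12; 0.00216) and Pdk4 (1.33, SE 0.31; 0.00615). Hadha, of mitochondrial oxidation, had 161, 286 and 327 CPM in Control and 345, 430.3 and 499.7 CPM in GWI mice, without overlap. On the opposite strand Hadha shares exon sequence with Garem2, and Acadvl with Dvl2. Pdk4, which turns the cell from glucose to fat, had 8.10, 18.5 and 47.6 CPM against 35.5, 49.6 and 89.4 CPM, and 4 GWI mice exceeded Control mouse 6. With Adipoq in the model Cpt1a, Cpt2, Acadvl, Hadha and Pdk4 were still called. With the smooth muscle score Acadvl was not (0.32, adjusted p 0.0590). With the replicate number as a block, though no pairing by number was seen, neither Cpt2 nor Acadvl was. Leaving out a mouse, Cpt1a, Hadha and Pdk4 were called in all 17 fits, Cpt2 not without Control mouse 7 or GWI mouse 6 or 7 (adjusted p up to 0.0663), and Acadvl in 7 of 17 (up to 0.0798 without GWI mouse 6).

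Genes of 9 other tissues and cell types were set against the summed level of the 10 genes. Each relation was tested by permutation, and adjusted over the 9 every p was 0.85. Mesothelium (Msln, Upk3b, Upk1b, Lrrn4, Wt1 and Gpm6a), which covers both gut and mesentery, had r 0.18 and rho 0.24 (permutation p 0.49), 0.27 without GWI mouse 7 and Control mouse 2, 0.46 within Control and 0.10 within GWI mice. Endothelium had r -0.26 and rho -0.21 (permutation p 0.32), -0.29 without the same 2 mice, -0.23 within Control and 0.10 within GWI mice. Smooth muscle had r -0.14 and rho -0.11 (permutation p 0.58), 0.07 without the 2, 0.16 within Control and -0.21 within GWI mice. For macrophage, stroma, colon epithelium, small intestine, skeletal muscle and lymphoid genes r lay between -0.24 and 0.09 (permutation p 0.34 to 0.85). Within Control and within GWI mice r was 0.59 and -0.39 for lymphoid, -0.42 and 0.43 for small intestine and 0.37 and -0.15 for macrophage genes. It was 0.12 and -0.08 for stroma, 0.04 and -0.19 for colon epithelium and 0.02 and -0.34 for skeletal muscle genes. Of the 6 mesothelium genes edgeR called 0, with Gpm6a lower at an unadjusted p under 0.05 (-0.72, SE 0.27; adjusted p 0.0575), and DESeq2 and limma-voom each called 1 lower. Without Control mouse 9, Control mouse 1 or GWI mouse 7 edgeR also called 0 of them, with 1 at an unadjusted p under 0.05 in each. Pancreas genes such as Prss2 and Cel, a marker of tissue lying in the mesentery, summed to at most 0.252 CPM in any mouse.

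Library measures were also set against the summed level of the fat genes. Over 3 relations, the total count had r -0.38 (permutation p 0.14, adjusted 0.41) and rho -0.50 (permutation p 0.046, adjusted 0.14), -0.41 without GWI mouse 7 and Control mouse 2, -0.27 within Control and -0.40 within GWI mice. The mitochondrial share had r -0.16 and rho -0.22 (permutation p 0.55), -0.10 without the 2, -0.01 within Control and -0.03 within GWI mice. The TMM factor had r -0.15 and rho -0.11 (permutation p 0.58), -0.12 without the 2, -0.21 within Control and 0.11 within GWI mice.

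Adipocyte promoters are known for sites of C/EBP proteins and of PPARG, and short motifs were looked up in windows from 250 bases before to 50 after the start of each gene. The table of promoters held 9 windows for 7 of the 10 genes and 32851 windows in all, and none for Fabp4, Car3 and Adrb3. The C/EBP palindrome TTGCGCAA, searched on both strands, was in the window of Lep, 47 bases before the start, and in 0.183% of all windows. The looser TTGCNNAA, which contains it, was in windows of Lep, Plin1 (2 sites) and Cidec, 3 of 9, and in 10.8% of all windows. CCAAT was found in the window of Adipoq alone, at 3 sites, and in 37.4% of all windows. AGGTCA, the unit of nuclear receptor sites, was in 0 of the 9 and in 16.3% of all windows. A match describes the sequence only, and binding was not tested.

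The windows of Lep (chr6:29059971-29060270, plus strand), Plin1 (chr7:79732727-79733026, minus strand) and Adipoq (chr16:23146286-23146585, plus strand) of build GRCm38.p6 (RefSeq) are shown as examples that hold a motif. They are printed in the direction of the gene, with TTGCGCAA in Lep, TTGCNNAA in Plin1 and CCAAT of either strand in Adipoq in capitals. A link between these motifs and the covariation of the genes was not tested.

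Lep: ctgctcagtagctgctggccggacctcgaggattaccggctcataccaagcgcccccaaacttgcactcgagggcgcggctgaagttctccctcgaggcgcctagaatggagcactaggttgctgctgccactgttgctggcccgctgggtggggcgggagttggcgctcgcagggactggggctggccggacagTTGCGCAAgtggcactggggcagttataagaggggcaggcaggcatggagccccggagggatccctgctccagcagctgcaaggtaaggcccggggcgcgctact

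Plin1: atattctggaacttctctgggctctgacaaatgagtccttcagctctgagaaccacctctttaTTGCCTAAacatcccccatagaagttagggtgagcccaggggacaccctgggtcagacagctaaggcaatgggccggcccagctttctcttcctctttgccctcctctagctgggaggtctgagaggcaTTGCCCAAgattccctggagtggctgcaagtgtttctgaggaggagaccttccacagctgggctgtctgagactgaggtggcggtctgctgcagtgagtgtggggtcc

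Adipoq: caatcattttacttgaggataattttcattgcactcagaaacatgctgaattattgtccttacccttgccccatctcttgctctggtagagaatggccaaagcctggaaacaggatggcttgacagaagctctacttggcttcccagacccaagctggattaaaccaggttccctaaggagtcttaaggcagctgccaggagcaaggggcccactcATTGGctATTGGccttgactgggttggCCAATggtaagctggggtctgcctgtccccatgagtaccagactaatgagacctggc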

How the data were processed

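The authors trimmed reads with Trimmomatic 0.36, mapped them to GRCm38 with STAR 2.5.2b and counted with featureCounts of the Subread package. The deposited table of raw counts has 23719 entries, 23671 distinct symbols and 17 columns of mice, with 0 columns left without a sample. The 48 entries that repeat a symbol were kept apart, and none is among the genes named here. The annotation release and the strand setting of the counting are not stated, and the methods do not say whether fat was trimmed from the colon. The reads were not processed again.

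Counts were filtered by filterByExpr, scaled by TMM and tested with the robust quasi-likelihood F-test of edgeR 4.0.16 in R 4.3.3, with group as the only term. P-values were adjusted by Benjamini-Hochberg over 14146 genes. SE was worked back from each fold change and its F value. Correlations were computed in Python 3.11.15 on log2 CPM (prior count 2). Levels per kilobase used exon lengths of GENCODE M21, which also gave the overlaps of genes. The alternatives tried were other size factors, fits without robust estimation, no filter, at least 10 counts in every mouse, a replicate block, a smooth muscle covariate, DESeq2 1.42.0, limma-voom (limma 3.58.1) and leaving out each mouse. A fit with Adipoq as covariate was added after the data had been seen. The 10 genes and the lists were written with earlier results of these data known. Genes are named when they belong to the 10, ranked among the 10 nearest, or were called in a list, though not each called gene is named.

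Some sample names begin alike (those of Control mice 3, 4 and 5, of Control mice 7 and 8, of GWI mice 1 and 2, of GWI mice 3, 4 and 5, and of GWI mice 7 and 8). What this marks is not defined, and it was not in the model, so each test takes the 17 mice as independent. Their summed levels were 209.6, 471 and 449 CPM in Control mice 3, 4 and 5, 88.0 and 102 in Control mice 7 and 8, 265 and 151 in GWI mice 1 and 2, 466, 613 and 212 in GWI mice 3, 4 and 5, and 1384 and 527 in GWI mice 7 and 8.

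No 2 of the 17 libraries were copies of each other: over all pairs the closest, Control mice 4 and 5, had a chi-square of 9.41 per gene. Reads without molecular identifiers are not separate molecules, so counting error is the lower limit of technical noise.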

Additional observations from a re-analysis of the deposited data

Results flagged for a closer look

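Levels of the 10 genes and of their sum were searched for single mice far from the rest of their group, by Dixon's ratio. The ratio was taken on CPM and not on log2 CPM, and on CPM high values lie farther apart. Of 22 groups of values 9 stood apart, where chance alone gives about 1 in 20 for groups that are independent. These are not, since the genes vary together and the sum is made of them, and all 9 were the same mouse, GWI mouse 7. Its levels, with the next highest GWI mouse in brackets, were 96.3 CPM for Adipoq (40.5), 35.7 for Lep (16.2), 75.1 for Plin1 (33.1), 243 for Fabp4 (103), 219.5 for Cfd (99.8), 491 for Car3 (211), 119.98 for Cidec (62.5), 73.1 for Lipe (34.8) and 1384 for the sum (613).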

How the results depend on the processing

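Over all genes the 1889 higher calls became 1214 with upper-quartile factors, 3901 with limma-voom and 92 at the threshold of the study's methods (unadjusted p under 0.05 and a log2 fold change beyond 1 either way), and the 1903 lower calls became 2992, 4175 and 250, and 826 with the replicate block. Leaving out 1 mouse gave 1472 to 2523 higher and 1309 to 2295 lower.

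The 1 higher call among the 10 genes became 0 without the filter, 0 with the replicate block (Cidec 1.04, adjusted p 0.101), 2 with DESeq2, 0 with Adipoq as covariate and 0 to 3 when 1 mouse was left out. At the study's threshold it was 1, but Plin1 in place of Cidec. The 0 lower calls became 1 with Adipoq as covariate. Cidec was called in 8 of 11 alternative fits and 8 of 17 fits that left out a mouse. The median of the 10 was -0.0571 with Adipoq as covariate (Adipoq itself included) and 0.51 to 1.17 when a mouse was left out. In the wider list the 9 higher calls became 3 with the replicate block, 5 with Adipoq as covariate and 0 at the study's threshold, and 6 to 9 when a mouse was left out. Its 2 lower calls became 0 with the replicate block, 1 with smooth muscle (Lgals12, neither of the 2), 4 with limma-voom, 1 with Adipoq as covariate and 0 at the study's threshold, and 1 to 2 when a mouse was left out.

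Signs turned as follows. With Adipoq as covariate: Lep -0.11, Fabp4 -0.69, Retn -0.21, Car3 -0.27, Adrb3 -0.46. Fabp4: -0.0369 with smooth muscle and -0.24 without GWI mouse 7 (0.55 without Control mouse 9, the highest of such fits). Adrb3: -0.0572 with upper-quartile factors, -0.0276 with the replicate block, -0.21 with limma-voom, and without Control mouse 2 (-0.02), 3 (-0.03), 7 (-0.07) or 8 (-0.06) or GWI mouse 7 (-0.27) or 8 (-0.03), with the highest 0.18 without Control mouse 1. The cause was not tested.

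Mice of both groups share replicate numbers 1 to 8. Same-numbered mice had r of -0.51 to 0.11, and 0 of 8 correlated best with their own number. The replicate block therefore stood for no known pairing. It also left Control mouse 9, which has no GWI mouse of its number, out of the group comparison.

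Depth limited Lep, Retn and Adipoq in Control mouse 2, with 1, 2 and 7 counts, so they were not tested where 10 counts in every mouse were required. The other limit is the spread between mice. Without a record of how much fat was on each piece, the amount of fat and the state of the adipocytes cannot be told apart, and a role of PB in either was not tested.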
